A study of Homo sapiens with 4 samples.

Results

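JAML, MPZL3, MPZL2 and CADM1 are immunoglobulin-like adhesion genes of the chromosome band 11q23, and UBE4A is a ubiquitin ligase gene that lies beside them and was taken as a local control. The 5 genes were looked up by symbol among 67062 rows of the count table, and all 5 were found. Of these, 4 were among the 15918 genes with enough reads to be tested; MPZL2 was not. JAML, MPZL3 and CADM1 were chosen because their log2 fold changes in the comparison described here were low, so their values are given as a description without a test.

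RNA came from OCI-AML3, an established human acute myeloid leukaemia line with the cytoplasmic NPM1 mutation (NPM1c+). Cells of the PIG-LONA group were transduced with the retroviral vector pMSCV-PIG carrying the long noncoding RNA LONA behind an RNA polymerase II promoter, and cells of the PIG-EMPTY group with the vector lacking that insert. All cells therefore received the puromycin and GFP cassette with its PGK promoter, were exposed to polybrene and were sorted for GFP. Each group had 2 libraries of poly(A) RNA from independent transductions, 4 in total, with 29819572 to 38358442 counts per library, so all spread is between transductions of 1 cell line. No row was matched to LONA by name, and the labels could not be checked against its level. Of 8 myeloid leukaemia line markers, CD33, SPI1, CEBPA, HOXA9, MEIS1 and FLT3 each had over 1000 counts in every library, MPO had 83, 84, 63 and 107 counts, and KIT had 2, 1, 0 and 0.

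Immunoglobulin-like adhesion molecules hold cells together or guide their movement through extracellular domains that bind a partner on the same or another cell. JAML, the junctional adhesion molecule-like protein of neutrophils and monocytes, binds CXADR on epithelial and endothelial cells and takes part in leukocyte migration across these layers. CADM1 is a homophilic adhesion molecule that also binds CRTAM on lymphocytes, and its cytoplasmic tail binds the scaffold protein 4.1B, the product of EPB41L3. MPZL2 and MPZL3 are relatives of myelin protein zero; MPZL2 acts in epithelial and thymic adhesion, and MPZL3 is best known from skin and hair. UBE4A is an intracellular U-box enzyme that extends ubiquitin chains.

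JAML, MPZL3 and MPZL2 stand next to each other on the minus strand of chromosome 11. By GENCODE 29 on GRCh38, JAML spans 118193740 to 118225094, MPZL3 118226690 to 118252350 and MPZL2 118253403 to 118264536. Only 1595 bases separate JAML from MPZL3, and 1052 bases separate MPZL3 from MPZL2. UBE4A (118359585 to 118399211, plus strand) begins 95.05 kb beyond MPZL2, after the T cell receptor complex genes CD3E, CD3D and CD3G. CADM1 (115169218 to 115504957, minus strand) is farther off, 2.69 Mb from JAML.

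The sequences before the start sites of JAML, the member with the lowest log2 fold change, and UBE4A, the control, are shown because both are in the RefSeq promoter table (GRCh38.p14), which matched 2 of the 5 genes. They differ in base composition. Each run holds the 250 bases before the start, 5′ to 3′ on the gene's strand, and capitals mark a match to GAGGAAGT (PU.1-type ETS letters) or CCGGAAGT (letters of other ETS factors) on either strand.
JAML, chr11:118212947-118213196, minus strand: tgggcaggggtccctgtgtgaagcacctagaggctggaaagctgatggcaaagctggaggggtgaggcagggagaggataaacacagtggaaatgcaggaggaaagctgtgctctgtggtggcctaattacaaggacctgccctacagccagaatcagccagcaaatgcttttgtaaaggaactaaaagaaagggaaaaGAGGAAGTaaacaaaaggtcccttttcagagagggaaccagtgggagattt
UBE4A, chr11:118359350-118359599, plus strand: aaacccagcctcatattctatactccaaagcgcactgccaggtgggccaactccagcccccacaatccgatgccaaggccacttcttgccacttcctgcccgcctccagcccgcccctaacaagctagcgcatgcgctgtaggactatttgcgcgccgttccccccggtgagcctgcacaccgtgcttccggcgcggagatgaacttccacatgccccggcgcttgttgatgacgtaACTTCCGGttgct

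The JAML run held 0 CpG and was 50% G or C. The UBE4A run held 18 CpG and was 60.8% G or C, against medians of 11 CpG and 58% over all 35116 promoters of the table. In the JAML run GAGGAAGT occurred once, 51 to 44 bases before the start, and the same letters were in 2.17% of all promoters. TGTGGT (RUNX letters) also occurred once in it, 136 to 131 bases before the start, and was in 10.98% of promoters. In UBE4A CCGGAAGT occurred on the opposite strand 13 to 6 bases before the start (3.42% of promoters), and GGGCGG (GC box) once (42.6% of promoters). Neither run held the C/EBP letters TTGCNNAA, which were in 9.05% of promoters, or the AP-1 letters TGANTCA, which were in 6.57%. The E-box letters CACGTG (6.34% of promoters) were absent from both windows, and so were the TATA letters TATAAA (10.7% of promoters). Both strands were searched for every motif, and the capitals and the other matches do not overlap each other. These matches describe letters and were not tested for binding. The RefSeq start used here lies 12.1 kb inside the outermost JAML start of GENCODE, which lists 13 JAML transcripts with 12 different starts, and gene counts do not tell which start was used.

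JAML was lower in both PIG-LONA libraries than in either PIG-EMPTY library. The PIG-EMPTY libraries, replicate 1 first, had 165 and 175 counts, and the PIG-LONA libraries 21 and 63. As CPM, counts scaled to the TMM-adjusted library total, these were 5.54, 5.38, 0.701 and 1.64. The PIG-EMPTY libraries were close together, whereas PIG-LONA replicate 2 was 2.34-fold above replicate 1. The exact (Clopper-Pearson) 95% intervals of the PIG-LONA levels, 0.434 to 1.07 and 1.26 to 2.09 CPM, did not overlap, so the PIG-LONA cultures differed beyond counting error in this gene. Such intervals cover counting error only. The group means were 5.46 ± 0.108 and 1.17 ± 0.662 CPM (SD, n = 2 each), and the fitted log2 fold change was -2.15 ± 0.22 (SE), 4.44-fold lower. It was -2.95 without PIG-LONA replicate 2 and -1.73 without PIG-LONA replicate 1. In bulk RNA, fewer cells that express a gene and less RNA per cell cannot be told apart.

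MPZL3, the direct neighbour of JAML, was also lower in both PIG-LONA libraries. The PIG-EMPTY libraries had 92 and 132 counts and the PIG-LONA libraries 33 and 53, or 3.09, 4.06, 1.10 and 1.38 CPM. The PIG-LONA libraries differed by 1.25-fold, and the groups did not overlap. The log2 fold change was -1.51 ± 0.21 (SE), 2.86-fold lower, with group means of 3.57 ± 0.688 and 1.24 ± 0.195 CPM (SD, n = 2).

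CADM1 lay lower in PIG-LONA as well. The PIG-EMPTY libraries had 83 and 96 counts, the PIG-LONA libraries 36 and 35, or 2.78, 2.95, 1.20 and 0.909 CPM. The groups again did not overlap. Here the PIG-LONA libraries stood in the opposite order to those of JAML and MPZL3, with replicate 2 at 0.757 of replicate 1, although their 95% counting intervals (0.842 to 1.66 and 0.633 to 1.26 CPM) overlapped widely. The log2 fold change was -1.47 ± 0.22 (SE), 2.76-fold lower. Group means were 2.87 ± 0.119 and 1.06 ± 0.207 CPM (SD, n = 2).

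MPZL2, on the other side of MPZL3, was at or near 0 throughout. The PIG-EMPTY libraries had 1 and 0 counts and the PIG-LONA libraries 2 and 0. A count of 0 allows up to 0.0923 CPM in PIG-EMPTY replicate 2 and 0.0780 CPM in PIG-LONA replicate 2, taking 3 counts as the limit. The exact 95% intervals drawn for these libraries reach 0.113 and 0.0959 CPM. No difference in this gene was detectable at this depth.

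UBE4A was far more abundant, and its groups overlapped. Its counts in the same library order were 2783, 3016, 2737 and 3854, or 93.4, 92.8, 91.4 and 100.1 CPM. PIG-LONA replicate 1 was below and replicate 2 above the PIG-EMPTY libraries, by CPM. The log2 fold change was 0.04 ± 0.05 (SE), and it ran from -0.025 to 0.11 over 13 other settings. Per 1000 UBE4A counts of the same library, JAML had 59.3 and 58.0 counts with the empty vector against 7.67 and 16.3 with LONA. On that scale MPZL3 had 33.1 and 43.8 against 12.1 and 13.8, and CADM1 had 29.8 and 31.8 against 13.2 and 9.08. Since the 3 genes were chosen for low values and UBE4A was nearly equal between the groups, these shares restate the levels and add no support.

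**Figure D1:**
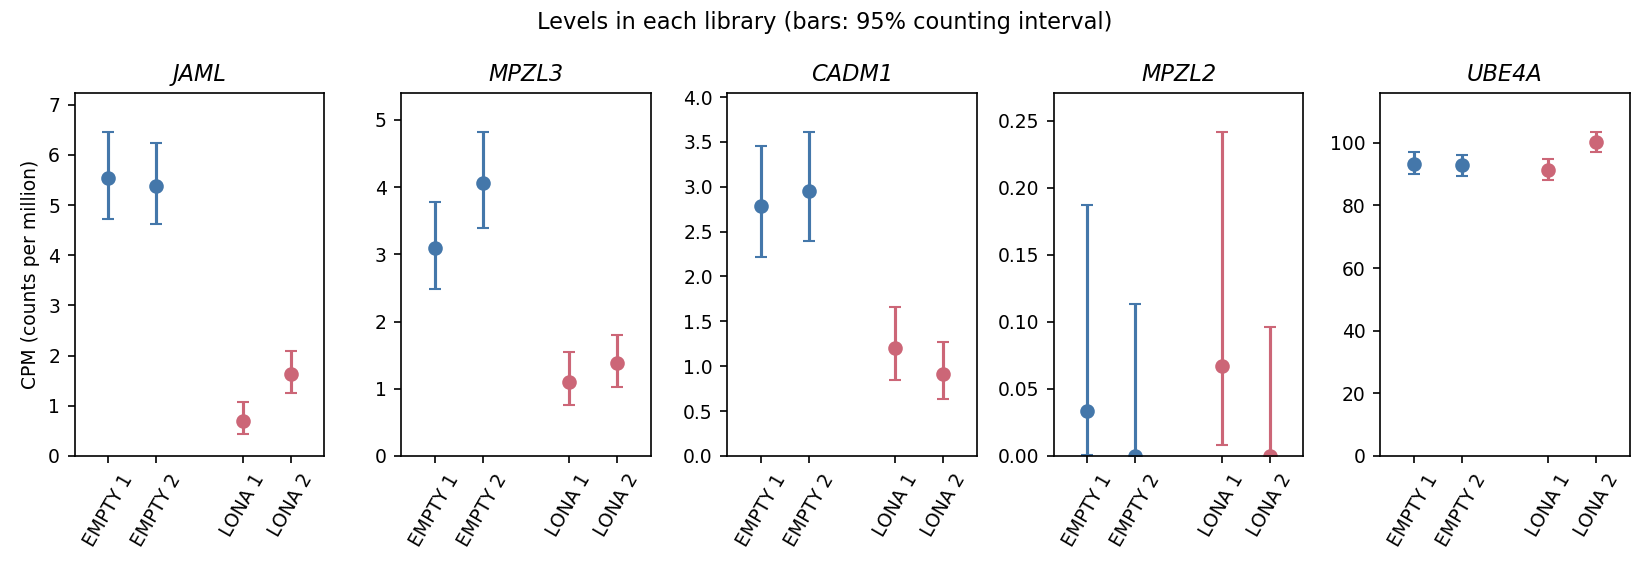
Levels of the 5 genes in CPM (linear axes from 0, a separate scale per gene) in each of the 4 libraries, with exact 95% counting intervals as bars. JAML, MPZL3 and CADM1 are lower in both PIG-LONA libraries (red) than in both PIG-EMPTY libraries (blue), MPZL2 stays at 0 to 2 counts, and UBE4A runs from 91.4 to 100.1 CPM.

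Of the 5 genes, 3 had both PIG-LONA libraries below both PIG-EMPTY libraries. This arrangement held for 24.4% of all tested genes, groups that did not overlap in either direction were found for 48.0%, and 6.43% were called in either direction (edgeR, adjusted p under 0.05). Since these 3 genes were chosen from the comparison, nothing is read from the count. The counts of JAML relative to MPZL3 were 1.79 (95% exact interval 1.38 to 2.34) and 1.33 (1.05 to 1.67) in PIG-EMPTY. In PIG-LONA they were 0.636 (0.350 to 1.13) and 1.19 (0.812 to 1.75). PIG-LONA replicate 1 therefore had the lowest share of JAML within the pair, with an interval that still overlapped that of PIG-EMPTY replicate 2. The interval of PIG-LONA replicate 2 overlapped those of both PIG-EMPTY libraries. Counts of JAML relative to CADM1 were 1.99 (1.52 to 2.62) and 1.82 (1.41 to 2.36) in PIG-EMPTY. In PIG-LONA they were 0.583 (0.324 to 1.03) and 1.80 (1.17 to 2.80). Only the interval of PIG-LONA replicate 1 lay apart from the others, and these intervals cover counting error only. Counts of MPZL3 relative to CADM1 were closer together, at 1.11 and 1.38 in the PIG-EMPTY and 0.917 and 1.51 in the PIG-LONA libraries, and all 4 intervals overlapped.

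Levels between genes were compared as CPM per kilobase of the merged GENCODE exons. In PIG-EMPTY the order was UBE4A (14.2 ± 0.0647; SD, n = 2), MPZL3 (0.901 ± 0.174), JAML (0.636 ± 0.0126), CADM1 (0.260 ± 0.0108) and MPZL2 (0.00353 ± 0.00499). No neighbours in this order overlapped between libraries. In PIG-LONA the order of the means was the same, with UBE4A at 14.6 ± 0.943, MPZL3 at 0.312 ± 0.0491, JAML at 0.136 ± 0.0771, CADM1 at 0.0958 ± 0.0188 and MPZL2 at 0.00702 ± 0.00993. There, JAML (0.0816 and 0.191) and CADM1 (0.109 and 0.0826) could not be ranked, because their libraries overlapped. On this per-length scale the adhesion genes were low next to the control in both groups. The merged exon length counts every annotated isoform, so it lowers the value of genes with many transcripts such as CADM1, for which GENCODE lists 22.

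The share of genes called lower around JAML, 3.03%, was near that of all tested genes. Within 1 Mb of the JAML to MPZL2 block, 33 other genes were tested by edgeR at an adjusted p under 0.05. In PIG-LONA 1 of them was lower and 0 were higher, and the median log2 fold change was -0.02. Among all tested genes 3.50% were lower and 2.93% higher, with a median of 0.00. The gene that fell was BACE1, the beta-secretase gene, 877 kb away, at 34.6 ± 1.67 CPM in PIG-EMPTY and 28.3 ± 0.629 CPM in PIG-LONA (SD, n = 2; log2 fold change -0.29 ± 0.06, edgeR adjusted p = 0.00461). Its adjusted p ran from 5.98e-04 to 0.105 over 12 other settings, and the call was lost when PIG-EMPTY replicate 1 or the low-count filter was left out. The count of calls in the window rose without PIG-LONA replicate 1 and fell without PIG-EMPTY replicate 1. The count over all tested genes moved the same way.

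Toward the centromere the closest tested genes were the interleukin-10 receptor gene IL10RA, 191 kb from the block (log2 fold change -0.11 ± 0.23), and FXYD6, a sodium pump regulator gene (-0.43 ± 0.37), neither past the threshold (edgeR adjusted p = 0.861 and 0.593). Next came the centrosomal gene CEP164 (-0.08 ± 0.04). BACE1 and the short RNA ENSG00000276505 (-1.39 ± 0.49, edgeR adjusted p = 0.107), which lies inside BACE1 on the same strand and had 12, 17, 7 and 5 counts, completed that side. On the other side, past UBE4A, were the ATP synthase subunit gene ATP5MG (-0.03 ± 0.10), the histone methyltransferase gene KMT2A (0.11 ± 0.05), the ciliary transport gene IFT46 (-0.23 ± 0.10), the coatomer subunit gene ARCN1 (-0.00 ± 0.04) and PHLDB1 (-0.13 ± 0.07). Their edgeR adjusted p-values lay between 0.197 and 0.997. ATP5MG, KMT2A, IFT46, ARCN1 and PHLDB1 were also the nearest genes beyond UBE4A.

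Several genes between IL10RA and UBE4A had too few reads for a test. SMIM35 had 3, 6, 1 and 1 counts in the library order above, TMPRSS4 had 2, 0, 0 and 0, and the sodium channel beta subunit genes SCN4B and SCN2B had 4, 4, 0 and 0 and 1, 0, 0 and 0. CD3E, CD3D and CD3G had 0 counts in all 4 libraries. JAML and MPZL3 were thus the only tested genes between IL10RA and UBE4A. Over all tested genes edgeR called 6.43%. Within the 1 Mb around UBE4A, a window that mostly repeats the one above, 0 of 30 genes were called by edgeR. Of these, 5 had an unadjusted p under 0.05, and 0 were called by DESeq2 or by limma-voom. Among 15914 tested genes other than the members, 2968 had an unadjusted p under 0.05, and DESeq2 called 470 and limma-voom 993. The count of edgeR calls around UBE4A rose when either PIG-LONA library was left out, and so did the count over all tested genes.

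**Figure D2:**
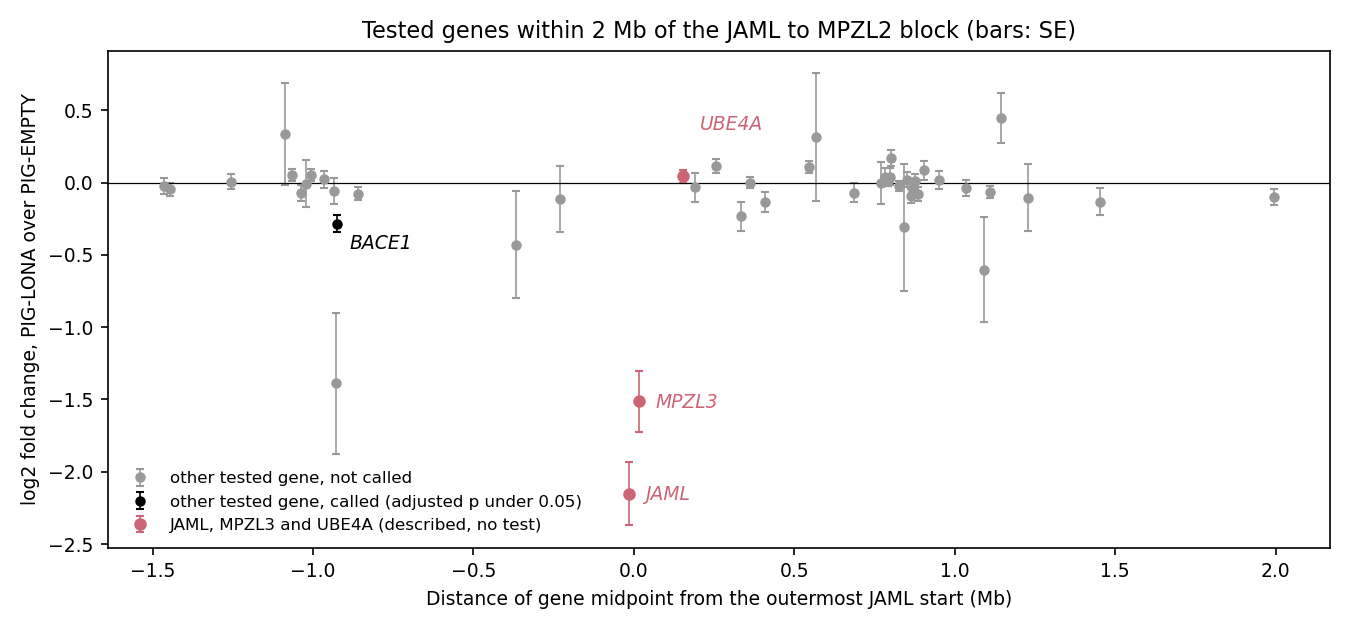
Log2 fold change of each tested gene (y axis, bars are SE) against the distance of its midpoint from the outermost JAML start in Mb (x axis), out to 2 Mb from the JAML to MPZL2 block. JAML at -2.15 and MPZL3 at -1.51 lie below every other point, UBE4A at 0.04 lies on the zero line, and BACE1 is the 1 called neighbour. JAML and MPZL3 were chosen for low values in this comparison.

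CADM1 stands alone in a gene-poor stretch. Over all tested genes edgeR called 6.43%. Of 15914 tested genes other than the members, 2968 had an unadjusted p under 0.05, 470 were called by DESeq2 and 993 by limma-voom. Within 1 Mb of CADM1 4 other genes were tested, and 0 were called by edgeR. Of the 4 genes, 0 had an unadjusted p under 0.05, and 0 were called by DESeq2 or limma-voom. These were the noncoding gene LINC00900, 249.3 kb away (28, 28, 22 and 21 counts; log2 fold change -0.51 ± 0.32, edgeR adjusted p = 0.422), the mitochondrial ribonuclease gene REXO2 (-0.02 ± 0.06), the RNA surveillance gene RBM7 (-0.05 ± 0.07) and C11orf71 (-0.08 ± 0.15). The next genes out, the deubiquitinase gene USP28 (0.22 ± 0.07, edgeR adjusted p = 0.0573), the kinetochore gene ZW10 (0.08 ± 0.06), the splicing gene BUD13 (-0.02 ± 0.05), ZPR1 (-0.05 ± 0.04), the kinase gene SIK3 (0.01 ± 0.05) and ENSG00000254851 (0.34 ± 0.35), did not pass either. Between CADM1 and JAML 16 genes were tested, with a median log2 fold change of -0.05 and BACE1 as the single call. Chromosome 11 without the 5 genes had 33 of 826 genes lower, 15 higher (1.82%) and a median of -0.01.

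Annotated genes that overlap the members had few reads. The pseudogene HSPE1P18, within JAML on the same strand, had 3, 1, 1 and 0 counts. CADM1 is overlapped on the opposite strand by CADM1-AS1 and by 2 lincRNA genes, all at 0 counts. At the 3′ end of UBE4A the antisense gene ENSG00000254873 had 1, 8, 5 and 12 counts. The strand setting of the counting is not given in the sources used here, so reads of these partners cannot be separated with certainty.

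The genes of the partners named above, CRTAM, CXADR and EPB41L3, were read next. CRTAM, whose product CADM1 binds, had 0 counts in all 4 libraries. CXADR, the receptor that JAML binds, was barely expressed, with 17 and 22 counts in the PIG-EMPTY and 10 and 9 in the PIG-LONA libraries (log2 fold change -1.16 ± 0.41). It did not pass the test (edgeR adjusted p = 0.108), although its groups did not overlap. EPB41L3, which encodes the 4.1B scaffold of CADM1, fell. The PIG-EMPTY libraries had 940 and 989 counts and the PIG-LONA libraries 413 and 682, or 31.5, 30.4, 13.8 and 17.7 CPM, and both PIG-LONA libraries lay far below both PIG-EMPTY libraries. The log2 fold change was -0.96 ± 0.08 (edgeR adjusted p = 2.88e-07), and the call was kept in all 12 other settings, in which the change ran from -1.17 to -0.80.

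EPB41L3 belonged to a list of 25 cytoplasmic adhesion scaffolds, of which 20 were tested. In that list 1 fell, 1 rose and 18 did not pass, and the median log2 fold change was 0.01; 3.50% of all tested genes fell and 2.93% rose. The gene that rose was its paralog EPB41L2, at 164 ± 2.13 and 198 ± 10.6 CPM (SD, n = 2; log2 fold change 0.27 ± 0.04, edgeR adjusted p = 2.43e-04). EPB41L2 lies on chromosome 6, where the median log2 fold change over 799 tested genes was 0.17 and 226 were called higher. The part of that chromosome-wide shift in the EPB41L2 value was not tested. Without PIG-LONA replicate 2 the number of calls rose in the list and over all tested genes.

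Among 14 genes of the JAM and CTX family, to which JAML is related, 5 were tested and 0 were called by edgeR, DESeq2 or limma-voom; 1 had an unadjusted p under 0.05. VSIG10 (11.5 ± 1.65 and 10.97 ± 0.404 CPM; SD, n = 2) and the tight junction gene F11R (5.93 ± 0.387 and 5.95 ± 0.294 CPM) were its most abundant members. The list had a median log2 fold change of -0.08, and over all tested genes 6.43% were called by edgeR. For 15914 tested genes other than the members, DESeq2 called 470, limma-voom called 993, and 2968 had an unadjusted p under 0.05. Of 6 genes of the myelin protein zero and sodium channel beta family 3 were tested and 1 rose; 2.93% of all tested genes did. This was MPZL1, a cell surface glycoprotein gene whose product binds the phosphatase SHP-2, at 23.3 ± 0.565 CPM in PIG-EMPTY and 28.7 ± 1.67 CPM in PIG-LONA (SD, n = 2; log2 fold change 0.31 ± 0.06, edgeR adjusted p = 0.00480). MPZL3, in contrast, was lower in PIG-LONA. The call of MPZL1 was lost without PIG-EMPTY replicate 2 (edgeR adjusted p = 0.0597, the highest of 12 other settings, which began at 8.43e-06) and when no low-count filter was used.

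Of 13 CADM and nectin family genes and their receptors, 6 were tested and 0 were called by edgeR, DESeq2 or limma-voom, with 1 at an unadjusted p under 0.05. Over all tested genes edgeR called 6.43%, so a count of 0 among 6 is near the background. DESeq2 called 470 and limma-voom 993 of 15914 tested genes other than the members, and 2968 had an unadjusted p under 0.05. The poliovirus receptor gene PVR (49.2 ± 0.519 and 50.2 ± 0.512 CPM; SD, n = 2) and NECTIN1 (13.5 ± 1.17 and 12.3 ± 1.04 CPM), the latter also on chromosome 11, were the most abundant. The median log2 fold change was -0.13. CADM1 was the only tested member of its own subfamily besides CADM4, which had 5, 9, 10 and 20 counts (log2 fold change 0.95 ± 0.48, edgeR adjusted p = 0.297). Without PIG-LONA replicate 1 the number of calls rose in the list and over all tested genes.

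Of 33 other immunoglobulin adhesion genes of leukocytes 21 were tested, and 4 fell, 1 rose and 16 did not pass, with a median log2 fold change of -0.12. Over all tested genes 3.50% fell and 2.93% rose, with a median of 0.00. PECAM1, an adhesion molecule of leukocytes and endothelium, stood at 32.6 ± 0.470 CPM in PIG-EMPTY and fell to 26.3 ± 0.109 CPM (SD, n = 2; log2 fold change -0.31 ± 0.06, edgeR adjusted p = 0.00190). SIRPA, the myeloid receptor for CD47, fell by 0.18 ± 0.04 on the log2 scale (edgeR adjusted p = 0.00543). CEACAM6, an adhesion gene of granulocytes and epithelia, had 47 and 21 counts in the PIG-EMPTY and 6 and 12 in the PIG-LONA libraries (-2.04 ± 0.45, edgeR adjusted p = 0.00760). It passed the low-count filter through its PIG-EMPTY libraries, so nothing is read from its place among the 4 genes that fell. CD244, a SLAM family receptor, was at -0.43 ± 0.12 (edgeR adjusted p = 0.0355). ALCAM, the ligand of CD6, rose from 21.5 ± 1.73 to 28.96 ± 2.33 CPM (0.44 ± 0.07, edgeR adjusted p = 5.37e-04). The calls of PECAM1 and ALCAM were kept in all 12 other settings. SIRPA did not pass when PIG-EMPTY replicate 1 or PIG-EMPTY replicate 2 was left out, CEACAM6 did not pass without PIG-EMPTY replicate 1, and CD244 did not pass when either PIG-EMPTY replicate 2 or PIG-LONA replicate 2 was dropped. All 3 also missed the threshold with no low-count filter, and CD244 missed it with DESeq2. DESeq2 called 3 genes of the list and 473 genes in all. With no low-count filter, 2 genes of the list and 334 genes in all were called. The count in the list also moved when a library was left out, as did the count over all tested genes.

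The ubiquitin ligase relatives of UBE4A were read in the same way. All 10 U-box ligases and partners of the segregase p97 were tested, and 0 were called by edgeR, DESeq2 or limma-voom, with 1 at an unadjusted p under 0.05 and a median log2 fold change of 0.03. With 6.43% of all tested genes called by edgeR, a count of 0 among 10 is near the background. An unadjusted p under 0.05 was found for 2968 of 15914 tested genes other than the members. DESeq2 called 470 of those 15914 genes and limma-voom 993. VCP, which encodes p97, was at 407 ± 2.14 and 412 ± 4.53 CPM (SD, n = 2), PRPF19 at 239.6 ± 0.770 and 242 ± 6.51 CPM, and the paralog UBE4B at 91.6 ± 0.122 and 93.9 ± 2.27 CPM.

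**Figure D3:**
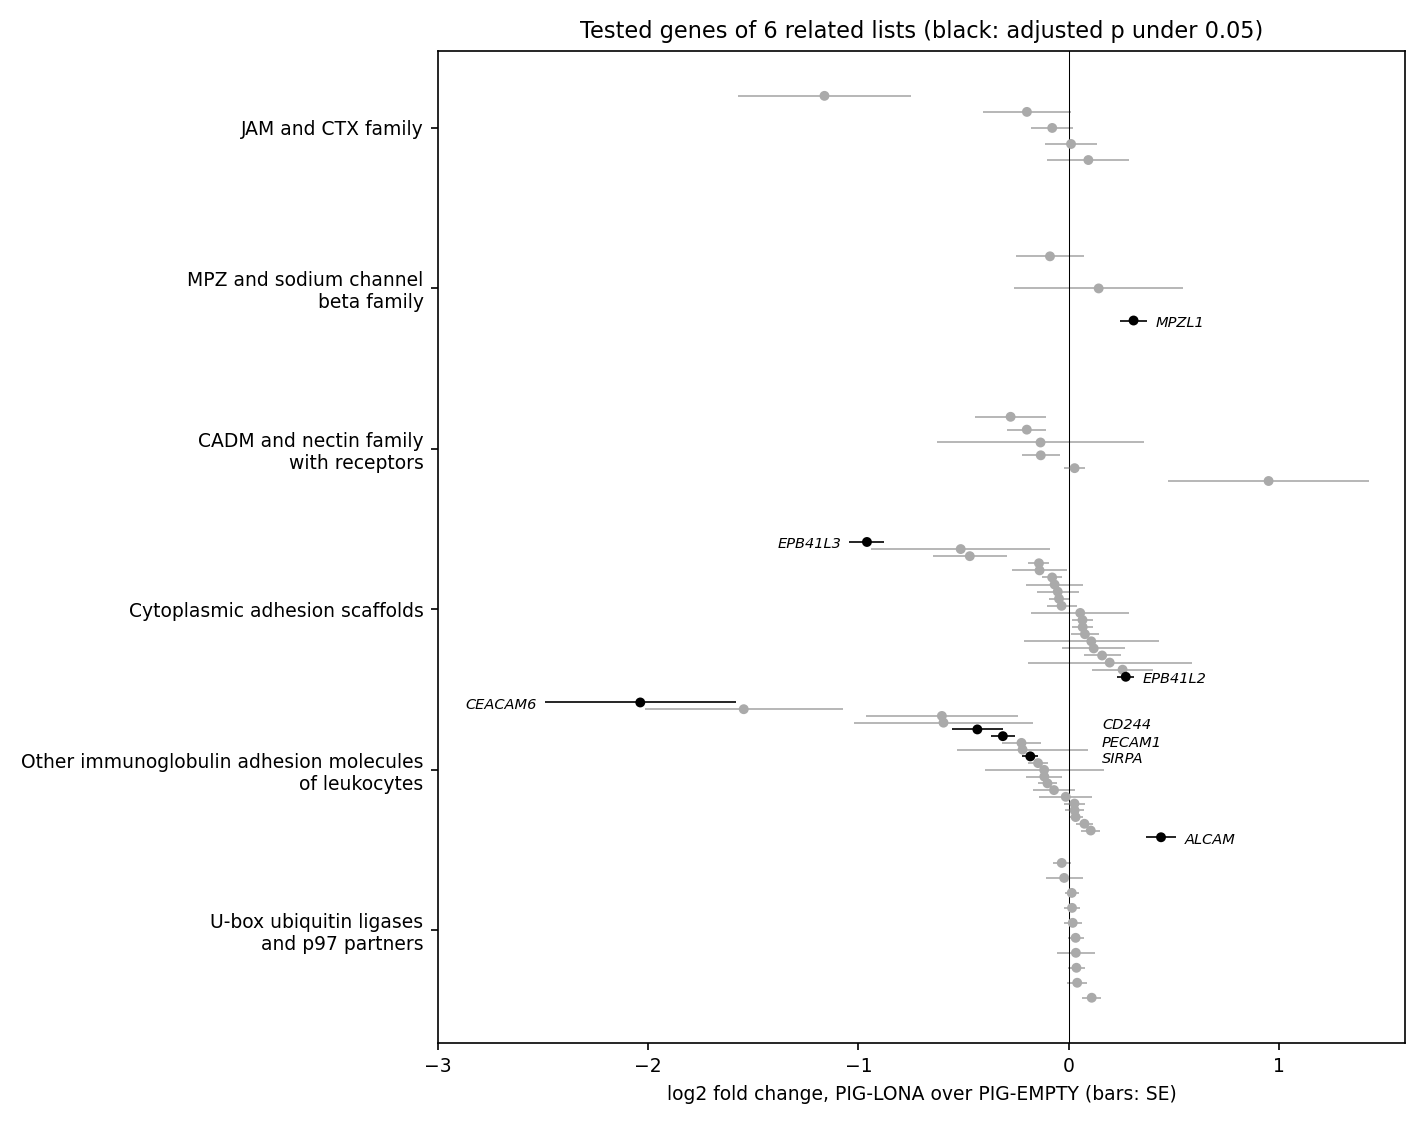
Log2 fold change (x axis, bars are SE) of each tested gene in 6 lists related to the members, ordered by value within a list (y axis). Black points passed an edgeR adjusted p of 0.05. Of these, CEACAM6 at -2.04 and EPB41L3 at -0.96 lie farthest left, CD244, PECAM1 and SIRPA (names to the right of their points) lie left of 0, MPZL1, EPB41L2 and ALCAM lie to the right of 0, and the U-box list lies near 0.

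Monocyte and macrophage markers, genes of cell types in which JAML is normally expressed, also fell. Of 12 markers 10 could be tested, and these 10 were all called lower in PIG-LONA (3.50% of all tested genes were), with a median log2 fold change of -0.70. Because earlier results on these samples were known when the markers were listed, their direction is not independent evidence. Their summed level was 481 and 481 CPM in PIG-EMPTY and 289 and 303 CPM in PIG-LONA. None was at 0 in every library, but CD68 had 4, 8, 4 and 5 counts and MRC1 1, 0, 0 and 1. The scavenger receptor gene CD163 fell most (-1.05 ± 0.08, edgeR adjusted p = 8.98e-08), then CSF1R, the receptor for the macrophage growth factor (-0.92 ± 0.15), and the integrin gene ITGAM (-0.89 ± 0.11). VCAN (-0.74 ± 0.05), LYZ (-0.70 ± 0.12), S100A8 (-0.70 ± 0.08), S100A9 (-0.67 ± 0.05), CD14 (-0.53 ± 0.10) and FCGR1A (-0.49 ± 0.06) were also lower. LYZ lost its call with DESeq2, CD14 without PIG-EMPTY replicate 2, and both with no low-count filter. The part of these monocyte genes in the lower levels of JAML, MPZL3 and CADM1 was not tested.

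JAML differed more between the PIG-LONA libraries than those markers did. The ratio of replicate 2 to replicate 1 was 2.34 for JAML and ran from 0.855 to 1.27 over the 10 markers. For MPZL3 it was 1.25, for EPB41L3 1.29, for CADM1 0.757 and for UBE4A 1.10. Relative to the PIG-EMPTY mean, the markers stood at 0.436 to 0.755 in PIG-LONA replicate 1 and 0.520 to 0.683 in replicate 2. JAML stood at 0.128 and 0.300, MPZL3 at 0.308 and 0.385 and CADM1 at 0.419 and 0.317, below the range of the markers in both libraries. JAML, MPZL3 and CADM1 were chosen for low log2 fold changes in this comparison, so their place below the markers restates that choice. In PIG-LONA replicate 1, CADM1 (0.419) was also close to the lowest marker (0.436).

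T cell markers, which include the CD3 genes beside UBE4A, summed to 0.104 to 0.185 CPM per library, with CD3E, CD3D, CD3G and CD2 at 0. Epithelial markers summed to 0.215 to 0.336 CPM, with EPCAM and KRT19 at 0. Erythroid markers were at 0 to 0.0668 CPM, with HBA1 and HBB at 0. B cell markers summed to 1.11 to 1.30 CPM and NK cell markers to 1.64 to 2.49 CPM. The 5 megakaryocyte markers summed to 2.18 to 2.52 CPM in PIG-EMPTY and 0.935 to 1.43 CPM in PIG-LONA, with GP9, PF4 and GP1BA at 0 and the platelet chemokine gene PPBP as the 1 called gene (-2.41 ± 0.34, edgeR adjusted p = 1.29e-04; not called by DESeq2). The 5 fibroblast markers, of which 2 were tested and 0 called, summed to 1.34 to 1.48 and 1.002 to 1.091 CPM. The 5 endothelial markers summed to 32.5 to 33.4 and 26.2 to 26.5 CPM, nearly all of it PECAM1. Of the 8 markers of the line itself 7 were tested; the receptor kinase gene FLT3 rose (0.44 ± 0.05, edgeR adjusted p = 2.05e-05) and SPI1, which encodes PU.1, fell by 0.13 ± 0.04 on the log2 scale (edgeR adjusted p = 0.0346). Of the line markers limma-voom called 2 and DESeq2 called 1. Of 15914 tested genes other than the members they called 993 and 470. The part of all these markers in the lower levels of the adhesion genes was not tested.

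**Figure D4:**
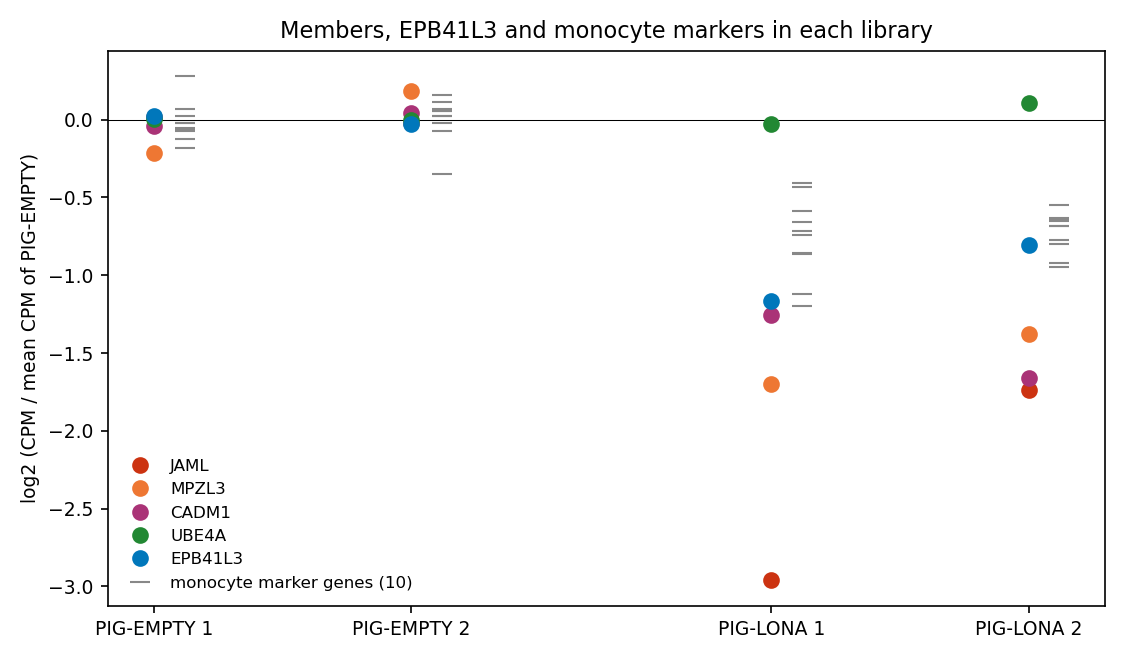
Log2 of the CPM over the PIG-EMPTY mean (y axis) in each library (x axis) for JAML, MPZL3, CADM1, UBE4A and EPB41L3 (coloured points) and for 10 monocyte marker genes (grey dashes). In PIG-LONA the 3 adhesion genes lie below all marker genes, JAML is lowest in both replicates, and UBE4A stays near 0. The 3 adhesion genes were chosen for low values in this comparison, so their place below the markers restates that choice.

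Genes with a similar pattern were ranked by the Euclidean distance of their log2 CPM over the 4 libraries, centred on the PIG-EMPTY mean, among 12375 other genes whose PIG-EMPTY libraries averaged 50 counts or more. For JAML the closest were the lipid transporter gene ABCA6 (distance 0.72; counts 74, 88, 16 and 26), the matrix glycoprotein gene THBS1 (0.83; counts 367, 456, 79 and 102), MGAM2 (1.19), MPZL3 (1.32) and the beta-glucan receptor gene CLEC7A (1.45). CADM1 was ninth for JAML. Among the closest to MPZL3 were MGAM2 (0.49; counts 64, 57, 16 and 29), the hyaluronan-degrading gene CEMIP (0.52), CADM1 (0.54) and CLEC7A (0.56), with JAML at rank 115. Among the closest to CADM1 were the noncoding host gene MIR124-1HG (0.36; counts 193, 160, 66 and 73), CEMIP (0.38), the adrenomedullin gene ADM (0.48) and MPZL3 (0.54), with JAML at rank 694. By this distance MPZL3 and CADM1 were nearer to each other than either was to JAML. The measure rests on 4 libraries, and genes with falls of like size are close in it whatever else they share.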

How the data were processed

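Poly(A) RNA was sequenced from stranded (NEBNext Ultra II Directional) libraries, per the labels. The authors deposited a table of raw counts, with genes by Ensembl ID and the 4 libraries as columns. FastQC 0.11.4, STAR 2.5, HTSeq and hg38 are named in the submitters' processing notes; the sources used here give neither annotation release nor strand setting. Symbols matched 60357 of 67062 rows (0.0723% of counts lay in the others); coordinates and exon lengths came from GENCODE 29.

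Counts were tested with edgeR 4.0.16 (filterByExpr, TMM, glmQLFit with legacy off, glmQLFTest; two-sided, Benjamini-Hochberg over 15918 genes). Chi-square per gene between replicates was 1.81 (PIG-EMPTY) and 4.67 (PIG-LONA), so all 4 libraries were kept as samples. On simulated counts of this comparison (15698 genes tested), 98.5% of genes changed 2-fold were recovered, and 6 other calls were false. The changed genes were drawn from those with a mean above 2 CPM, and each gene was given the same spread in both groups. The recovery therefore does not cover genes with lower levels, such as CXADR and CEACAM6. Likeness used log2 CPM with a prior count of 2. Alternatives were DESeq2 1.42.0 (size factors, Wald test), limma-voom 3.58.1, upper-quartile or total scaling, other filters, a replicate block, leaving out each library, other windows, and removing the chromosome 11 median.

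Members, lists and tests were chosen with earlier results of these data known. Named genes were the 5 members, CXADR, the 5 nearest tested genes per side, up to 4 called genes per list (otherwise the 2 most abundant), the monocyte markers and the CD3 genes, and the 5 most similar genes per falling member. CD244, UBE4B, CADM4, CRTAM, PPBP, FLT3, SPI1, the other line markers, SMIM35, TMPRSS4, SCN2B, SCN4B and the overlapping genes were named after their values were seen. Protein sequences were not analysed here. A few genes that this rule names are not reported here.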

Additional observations from a re-analysis of the deposited data

How the results depend on the processing

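Over 13 other settings the log2 fold change stayed below 0 for JAML (-2.95 to -1.73), MPZL3 (-1.70 to -1.29) and CADM1 (-1.65 to -1.25). Leaving out a library moved these values most, and for such fits the single library left in a group is assumed to vary like the others. Over the leave-one-out fits JAML ran from -2.95 to -1.73, CADM1 from -1.65 to -1.25 and UBE4A from -0.025 to 0.11. The count of called genes, 1024, was 473 by the DESeq2 Wald test, 334 if no low-count filter was used and 466 to 2329 with a library left out. Calls within 1 Mb of the JAML to MPZL2 block numbered 0 if no low-count filter was used, 0 in a window of 0.5 Mb, and 0 to 5 with a library left out. Around CADM1 the count was 1 in a window of 2 Mb, and around UBE4A it was 1 in a window of 2 Mb and 0 to 4 with a library left out. The myelin protein zero list held 0 calls without the low-count filter and 0 to 1 with a library left out; the CADM and nectin list held 0 to 1, the scaffold list 2 to 4 and the other immunoglobulin list 3 to 8 with a library left out, the last also 3 by DESeq2 and 2 with no low-count filter. The causes were not tested. With the replicate number as a block, 1101 genes were called, and JAML, MPZL3 and CADM1 were at -2.16, -1.53 and -1.46. The deviations of same-numbered libraries correlated at 0.0288, so the numbers were not taken as pairs. Removing the chromosome 11 median changed no direction. At 21 to 175 counts per library, JAML, MPZL3 and CADM1 are limited by counting error, and MPZL2 cannot be compared.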
